A study of Homo sapiens with 8 samples.

Results

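The levels of 10 genes of the endoplasmic reticulum (ER) unfolded protein response were followed through the LOXHD1 enhancer knockdown in Ewing sarcoma (EwS) cells. HSPA5, HSP90B1, CALR, DNAJB9, DNAJC3, SDF2L1, PDIA4, CRELD2, HERPUD1 and XBP1 were taken by gene symbol from the expression matrix, 10 of 60332 genes. Each symbol had 1 row, and all 10 were among the 15175 genes tested, those that averaged 1 FPKM or more (fragments normalized to transcript length and library size) over all libraries. The question was whether ER stress targets of XBP1 and ATF6 differ between enhancer knockdown and control cells in either line.

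The EwS cell lines RD-ES and SK-N-MC were profiled by RNA sequencing, and each line gave 2 control and 2 eKD2 libraries (8 in total). The eKD2 cells were a puromycin-selected population infected with lentivirus that expresses dCas9-KRAB, a Cas9 that binds without cutting and carries a repressor domain, and 1 guide RNA next to the GGAA microsatellite in the LOXHD1 enhancer. The vector drives dCas9-KRAB from the ubiquitin C promoter. The labels describe the controls as cells that received the empty dCas9-KRAB virus, whereas the text of the study calls them parental cells, so eKD2 and control may differ by virus, vector and selection as well as by guide, and these cannot be told apart. The study names duplicates as biological replicates.

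LOXHD1 was at 21.4 and 21.2 FPKM in the RD-ES controls, against 1.04 and 1.02 FPKM with eKD2. In SK-N-MC the control libraries were at 159 and 169 FPKM, and eKD2 had a mean of 11.5 FPKM, so the targeted gene followed the labels in all 8 libraries. ZNF10, the gene whose KRAB domain such repressors usually carry, rose from 8.89 and 9.68 FPKM to 56.1 and 49.0 FPKM in RD-ES (log2 fold change 2.38, adjusted p = 0.0032) and from 7.65 and 10.2 FPKM to 65.1 and 59.6 FPKM in SK-N-MC (2.68, adjusted p = 0.0027). The control libraries of both lines were thus below all eKD2 libraries for this gene, and whether its reads come from the vector was not tested. All 6 EwS markers examined were detected in all libraries. Of 9 markers of other cell types, 8 were matched, and CD3E and KRT5 were listed at 0 in every library. PTPRC, a leukocyte marker, was at 19.2 to 22.6 FPKM in the SK-N-MC libraries, control and eKD2 alike, and at no more than 0.017 FPKM in RD-ES. CD68, a macrophage marker, was at 1.16 and 1.85 FPKM in the RD-ES controls, against 2.49 and 4.17 FPKM with eKD2 (log2 fold change 0.77, adjusted p = 0.360). CDH5, MYH11, ALB and EPCAM were at no more than 4.54 FPKM in any library. Read numbers are not given with the FPKM values. From the steps between low values, the libraries ranged from the shallowest, RD-ES eKD2 1, to 4.02 times its depth in SK-N-MC control 1, a rough estimate that carries any scaling by the authors.

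Proteins that fold poorly in the ER are sensed by IRE1 (ERN1), ATF6 and PERK (EIF2AK3) in the ER membrane. IRE1 cuts a short intron out of XBP1 mRNA, which then encodes an active transcription factor, and ATF6 is cleaved in the Golgi to release another. Both raise genes for chaperones, folding enzymes and ER-associated degradation, whereas PERK acts through eIF2α and ATF4, an arm shared with the response to amino acid shortage and named the integrated stress response. HSPA5 is the usual readout of the response, since BiP also binds the sensors and holds them inactive.

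The promoter letters known as sites of ATF6 and XBP1 are shown first, because the question concerns targets of these factors. RefSeq promoters, 250 bases before to 50 bases after each start (GRCh38.p14, 35116 promoters), were searched on both strands. The ER stress response element, ERSE, was written as CCAAT and CCACG with 9 bases between them. It stood in the promoters of 5 of the 10 genes, HSPA5, HSP90B1 (2 matches), CALR, CRELD2 and XBP1, and in 0.0769% of all promoters. The related ERSE-II, ATTGG and CCACG with 1 base between them, stood in HERPUD1 and SDF2L1 and in 0.0541% of all promoters. The letters TGACGTGG, part of the XBP1 site named UPRE, were in none of the 10 genes and in 0.729% of all promoters. Promoters of DNAJB9, DNAJC3 and PDIA4 held none of these letters. The 10 genes were listed as genes of this response, so their matches are no independent support. Each of them was counted once, whereas the shares are over single promoters. A match is a description of the letters only.

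Reference stretches that hold the matches are printed from GRCh37, 5′ to 3′ on the gene's strand, with ERSE or ERSE-II in capitals. In CALR, CRELD2 and SDF2L1 the element lies on the opposite strand, so the capitals are its reverse complement. Bases annotated as exons of the same gene were left out, and the HSP90B1 stretch, which lies within such exons, is not shown.
HSPA5, chr9:128003662-128003718, minus strand: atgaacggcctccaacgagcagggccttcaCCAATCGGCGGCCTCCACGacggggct
CALR, chr19:13049173-13049246, plus strand: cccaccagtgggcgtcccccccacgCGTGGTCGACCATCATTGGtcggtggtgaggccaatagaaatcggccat
CRELD2, chr22:50312172-50312250, plus strand: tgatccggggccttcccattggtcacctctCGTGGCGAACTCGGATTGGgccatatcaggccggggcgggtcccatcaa
XBP1, chr22:29196586-29196639, minus strand: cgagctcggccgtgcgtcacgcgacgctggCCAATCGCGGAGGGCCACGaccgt
SDF2L1, chr22:21996373-21996443, plus strand: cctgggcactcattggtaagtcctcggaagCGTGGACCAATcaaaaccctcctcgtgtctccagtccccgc

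HERPUD1 was the one gene of the 10 with a further match, to the C/EBP-ATF response element TGATGNAA, the site of ATF4 and its partners. This element stood in 3.62% of all promoters and in those of ATF3, CHAC1 and ASNS among 12 integrated stress response genes, none of which held an ERSE or ERSE-II. In the HERPUD1 stretch the first run of capitals is that element, on the opposite strand, and the second is ERSE-II.
HERPUD1, chr16:56965848-56965977, plus strand: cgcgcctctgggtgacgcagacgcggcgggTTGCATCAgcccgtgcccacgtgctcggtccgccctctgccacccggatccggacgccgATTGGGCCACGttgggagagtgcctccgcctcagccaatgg

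The intron that IRE1 removes is shown because the FPKM of XBP1 adds both forms of the mRNA. It is annotated in the transcript XBP1-202 and has 26 bases, here in capitals, within an exon of the uncut form. Bases repeat at both of its ends, so the annotation does not fix the exact cut.
XBP1, chr22:29192096-29192161, minus strand: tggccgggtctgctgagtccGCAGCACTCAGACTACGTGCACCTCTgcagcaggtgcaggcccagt
The share of the cut form cannot be read from values per gene, and the cutting was not measured here.

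In RD-ES, none of the 10 genes passed an adjusted p of 0.05 between eKD2 and control (limma, Benjamini-Hochberg adjustment), against 0.343% of all genes tested. XBP1 and HERPUD1 were higher in both eKD2 libraries and had an unadjusted p under 0.05, which 8.49% of all genes had in the higher direction, and none was lower at that level (3.79% of all genes). In SK-N-MC the count past the adjusted threshold was also 0, against 0.323% of all genes. There CALR and PDIA4 were lower at an unadjusted p under 0.05 (7.29% of all genes in that direction), and none was higher (5.71%). No gene was in both pairs. The split of higher and lower genes in RD-ES depends on the scaling of libraries: among all genes past an unadjusted p of 0.05, 69.1% were higher as deposited, 41.2% after median scaling of the libraries and 53.7% after quantile normalization. The smallest two-sided p that an exact permutation test allows with 2 libraries a group is 0.333, so the p-values rest on the spread that limma shares between genes and groups. FPKM describe a population of cells, so a higher level per cell and more cells with the mRNA cannot be told apart.

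**Figure D1:**
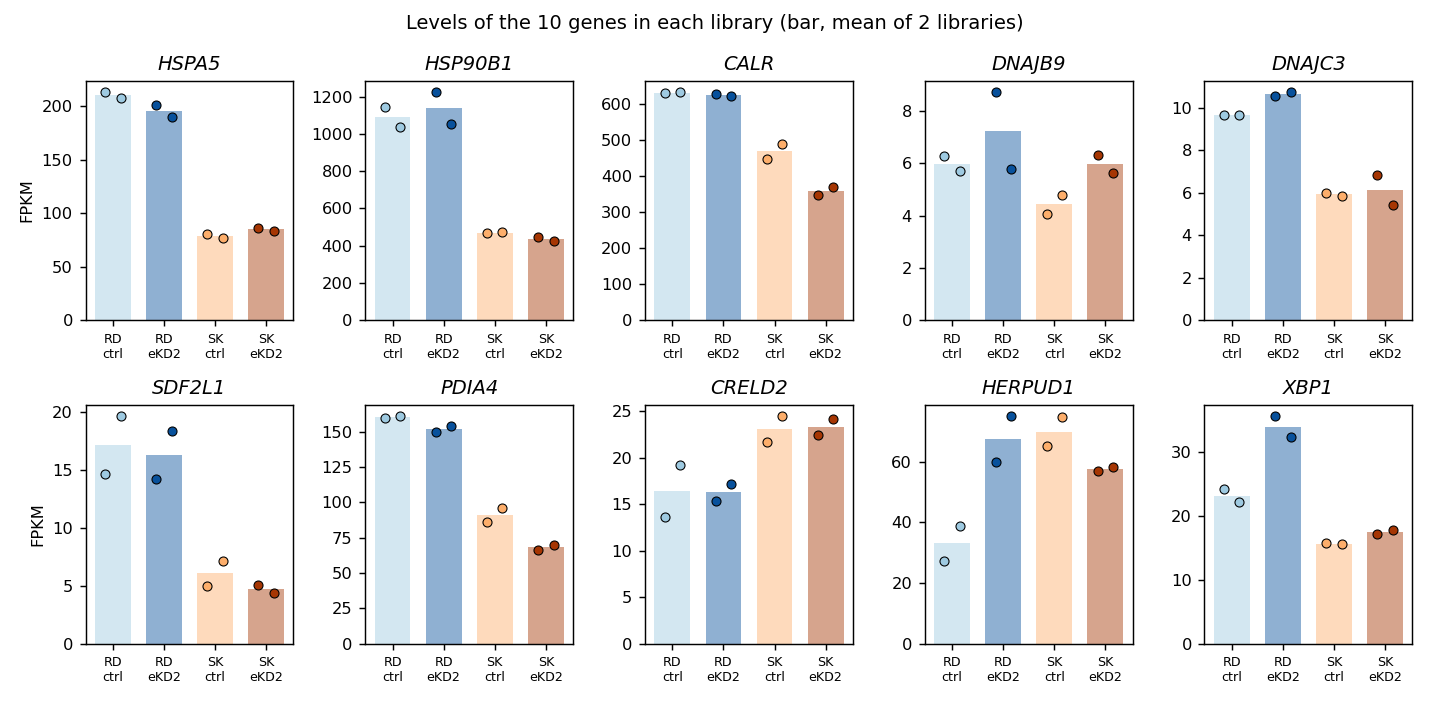
FPKM (linear axes from 0, 1 panel per gene) of the 10 genes in control (ctrl) and eKD2 libraries of RD-ES (RD, blue) and SK-N-MC (SK, orange), with a point for each library and a bar for the mean of 2. HERPUD1 stands at 27.3 and 38.9 FPKM in the RD-ES controls, against 59.9 and 75.1 FPKM with eKD2, whereas HSPA5 differs little within either line and is higher in RD-ES.

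XBP1, the transcription factor of the IRE1 arm (chromosome 22, 29190543 to 29196585, minus strand), was at 24.1 and 22.2 FPKM in the RD-ES controls, against 35.6 and 32.3 FPKM with eKD2. Both eKD2 libraries lay above both controls. The mean was 23.2 ± 1.37 FPKM in control and 33.96 ± 2.30 FPKM in eKD2 (SD, n = 2 each), 46.6% higher. The log2 fold change on the log2(FPKM + 1) scale was 0.53 (standard error 0.0828, 95% interval 0.331 to 0.735, adjusted p = 0.110), which ranked 87 of 15175 genes by p. In SK-N-MC, XBP1 was at 15.7 and 15.6 FPKM in control cells, against 17.2 and 17.7 FPKM with eKD2, 11.5% higher with a log2 fold change of 0.15 (adjusted p = 0.523). The eKD2 libraries were again both above the controls, by less than in RD-ES. The log2 difference between the changes of the lines was -0.38 (SK-N-MC minus RD-ES, adjusted p = 0.272).

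HERPUD1, an ER membrane protein that takes part in ER-associated degradation (chromosome 16, 56966054 to 56978776, plus strand), had the widest change of the 10 genes. Its RD-ES levels were 27.3 and 38.9 FPKM in control cells, against 59.9 and 75.1 FPKM with eKD2, means of 33.1 ± 8.23 and 67.5 ± 10.8 FPKM (SD, n = 2 each). The groups did not overlap, and the ratio of the means was 2.04. The log2 fold change was 1.02 (standard error 0.188, 95% interval 0.559 to 1.48, adjusted p = 0.153), rank 158 by p. In SK-N-MC the libraries were at 65.1 and 74.8 FPKM in control cells, against 56.8 and 58.3 FPKM with eKD2, 17.7% lower, with a log2 fold change of -0.27 (adjusted p = 0.5998). HERPUD1 thus stood on opposite sides of control in the lines, with no overlap of groups in either. The log2 difference between the changes was -1.29 (standard error 0.266, adjusted p = 0.180), which did not pass the threshold.

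HSPA5 (BiP, the main ER chaperone of the HSP70 family, chromosome 9, 127997132 to 128003661, minus strand) was at 213 and 208 FPKM in the RD-ES controls, against 202 and 190 FPKM with eKD2. Its SK-N-MC values were 80.1 and 77.3 FPKM in control cells, against 86.2 and 83.4 FPKM with eKD2. Groups did not overlap in either line, with eKD2 6.88% lower in RD-ES and 7.76% higher in SK-N-MC. In RD-ES its log2 fold change was -0.10 (95% interval -0.248 to 0.0423, adjusted p = 0.539), whereas SK-N-MC gave 0.11 (95% interval -0.0384 to 0.252, adjusted p = 0.522). Both intervals held 0. HSPA5 had the smallest spread between replicates of the 10 genes, an SD of 0.0402 on the log2 scale against a median of 0.143 over all genes tested.

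HSP90B1 (GRP94, the HSP90 of the ER, chromosome 12, 104323885 to 104347709, plus strand) was at 1144 and 1035 FPKM in the RD-ES controls, against 1222 and 1054 FPKM with eKD2, with overlap. In SK-N-MC the gene stood at 465 and 474 FPKM in control cells, against 444 and 422 FPKM with eKD2, 7.72% lower and without overlap. The log2 fold changes were 0.060 in RD-ES (adjusted p = 0.823) and -0.12 in SK-N-MC (adjusted p = 0.635). The direction in RD-ES turned with median scaling, to -0.012. Of the exonic bases of HSP90B1, 6.15% are shared with UQCC6 on the other strand, and the sources used here do not say whether reads were counted by strand.

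CALR (calreticulin, a calcium-binding chaperone for glycoproteins, chromosome 19, 13049392 to 13055303, plus strand) was at 629 and 632 FPKM in the RD-ES controls, against 626 and 622 FPKM with eKD2. In SK-N-MC it was at 447 and 490 FPKM in control cells, against 347 and 370 FPKM with eKD2, with both eKD2 libraries below both controls. The SK-N-MC means were 468 ± 30.5 and 358 ± 15.8 FPKM (SD, n = 2 each), 23.4% lower in eKD2. The log2 fold change was -0.38 in SK-N-MC (standard error 0.0612, 95% interval -0.533 to -0.234, adjusted p = 0.107, rank 105) and -0.014 in RD-ES (95% interval -0.164 to 0.135, adjusted p = 0.961). Of the 10 genes, CALR was the closest to the threshold in SK-N-MC. The log2 difference between the lines was -0.37 (adjusted p = 0.207). An antisense lncRNA shares 9.64% of the exonic bases of CALR.

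PDIA4 (ERp72, a disulfide isomerase, chromosome 7, 148700154 to 148725754, minus strand) was at 160 and 161 FPKM in the RD-ES controls, against 149 and 154 FPKM with eKD2. The SK-N-MC libraries stood at 86.2 and 95.8 FPKM in control cells, against 66.5 and 70.2 FPKM with eKD2. It was lower without overlap in both lines, by 5.35% in RD-ES but 24.9% in SK-N-MC. On the log2 scale the change was -0.079 in RD-ES (adjusted p = 0.690), whereas SK-N-MC had -0.41 (standard error 0.0717, 95% interval -0.582 to -0.232, adjusted p = 0.133, rank 142). The log2 difference between the lines was -0.33 (adjusted p = 0.276).

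The HSP40 co-chaperones DNAJB9 (ERdj4, chromosome 7, 108210311 to 108215294, plus strand) and DNAJC3 (P58IPK, chromosome 13, 96329393 to 96447242, plus strand) were the lowest of the 10 genes in RD-ES. DNAJB9 was at 6.28 and 5.70 FPKM in the RD-ES controls, against 8.71 and 5.78 FPKM with eKD2, and at 4.08 and 4.78 FPKM in the SK-N-MC controls, against 6.33 and 5.65 FPKM with eKD2. Groups overlapped in RD-ES and did not in SK-N-MC, where eKD2 was 35.3% higher (log2 fold change 0.37, 95% interval -0.0907 to 0.823, adjusted p = 0.482). The higher RD-ES eKD2 value came from the shallowest library, and without it the log2 fold change of DNAJB9 in RD-ES was -0.043 in place of 0.22. DNAJC3 was at 9.67 and 9.66 FPKM in the RD-ES controls, against 10.6 and 10.7 FPKM with eKD2, 10.2% higher with a log2 fold change of 0.13 (adjusted p = 0.682). In SK-N-MC, DNAJC3 was at 6.001 and 5.86 FPKM in control cells, against 6.85 and 5.45 FPKM with eKD2, with overlap.

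SDF2L1, a partner of BiP and ERdj3 in the ER lumen (chromosome 22, 21996591 to 21998588, plus strand), was at 14.6 and 19.7 FPKM in the RD-ES controls, against 14.2 and 18.3 FPKM with eKD2. Its SK-N-MC values were 5.01 and 7.19 FPKM in control cells, against 5.10 and 4.35 FPKM with eKD2. Groups overlapped in both lines, and SDF2L1 had the widest spread between replicates of the 10 genes (SD 0.254 on the log2 scale). CRELD2, an ER-resident disulfide isomerase (chromosome 22, 50311815 to 50321188, plus strand), was at 13.6 and 19.2 FPKM in the RD-ES controls, against 15.4 and 17.2 FPKM with eKD2. In SK-N-MC the gene stood at 21.7 and 24.4 FPKM in control cells, against 22.4 and 24.1 FPKM with eKD2. The log2 fold changes of CRELD2 were 0.0062 and 0.012, with 95% intervals of -0.394 to 0.407 and -0.388 to 0.413 in RD-ES and SK-N-MC, which leave room for a change in either direction. Of its exonic bases, 3.25% are shared with ALG12 on the other strand.

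**Figure D2:**
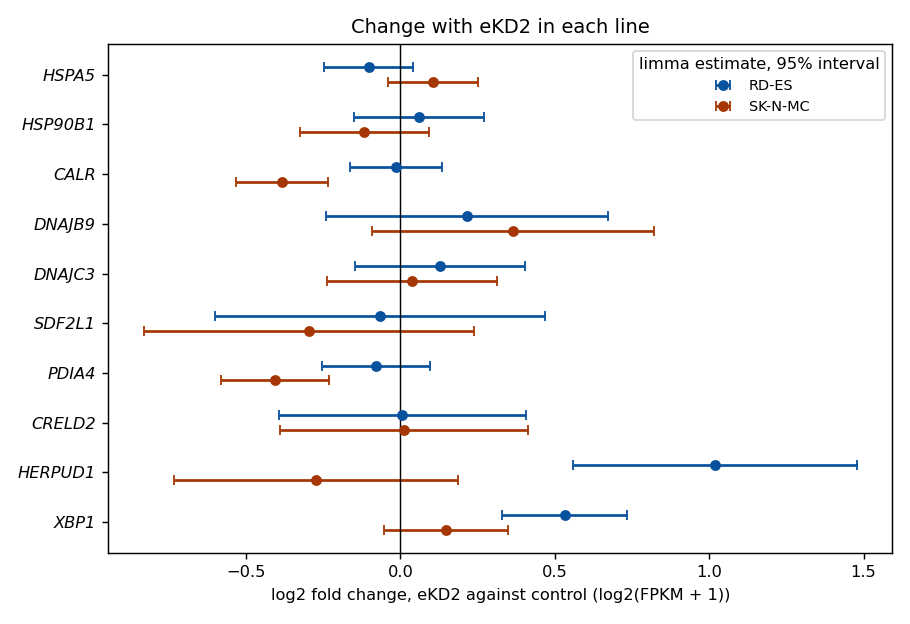
Log2 fold change between eKD2 and control (x axis, log2(FPKM + 1) scale) of the 10 genes in RD-ES (blue) and SK-N-MC (brown), with points for the limma estimate and bars for its 95% interval. The bars of HERPUD1 (0.559 to 1.48) and XBP1 (0.331 to 0.735) lie above 0 in RD-ES, those of CALR and PDIA4 lie below 0 in SK-N-MC, and the others hold 0.

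Counted over the list, 6 of the 10 genes were higher and 4 lower in RD-ES eKD2, with a median log2 fold change of 0.033 against 0.031 over all genes tested. In SK-N-MC, 5 were higher and 5 lower, with a median of -0.052 against -0.0049. Groups did not overlap for 3 genes higher and 3 lower in RD-ES, where 24.2% and 15.1% of all genes had that pattern, and for 3 higher and 4 lower in SK-N-MC, where the shares were 22.2% and 25.1%. With only 10 genes such counts are coarse. For so few genes each lay close to its share, and no difference from the shares was tested. The median in RD-ES was -0.037 after median scaling. None of the 10 genes passed the adjusted threshold for a difference between the lines in the change with eKD2 (0.244% of all genes did). At an unadjusted p under 0.05 that difference was lower in SK-N-MC for HERPUD1, CALR, XBP1 and PDIA4 (9.16% of all genes) and higher for HSPA5 (4.38%).

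More genes differed between the control cells of the lines than between eKD2 and control in either. Of the 10 genes, 9 passed the adjusted threshold between SK-N-MC control and RD-ES control, 7 lower and 2 higher in SK-N-MC, but so did 57.8% of all genes tested (26.4% lower and 31.4% higher). HSPA5, HSP90B1 and SDF2L1 had the widest gaps, with means 2.67, 2.32 and 2.81 times as high in RD-ES (log2 differences, SK-N-MC minus RD-ES, of -1.41, -1.21 and -1.36; adjusted p = 1.9e-05, 1.1e-04 and 0.0027). PDIA4 (-0.81), DNAJC3 (-0.62), XBP1 (-0.53) and CALR (-0.43) were lower in SK-N-MC as well, with adjusted p between 2.5e-04 and 0.0043. HERPUD1 went the other way, 2.11 times as high in SK-N-MC (log2 difference 1.08, adjusted p = 0.0037). CRELD2 was 1.41 times as high in SK-N-MC (0.485, adjusted p = 0.0443), a call that was lost in 11 of 13 alternatives, with adjusted p between 0.0107 and 0.194. DNAJB9 did not pass (-0.37, adjusted p = 0.140). The median of all genes was 0.065 in this comparison and fell by 0.107 with median scaling, and no gene of the 10 changed direction. Of the 8 matched markers of other cell types, PTPRC and EPCAM were higher in every SK-N-MC library than in any of RD-ES (EPCAM at 2.96 to 4.54 against at most 0.971 FPKM), and their part in these differences was not tested.

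Levels per transcript length can be ordered within a group. In RD-ES control the order of mean FPKM was HSP90B1, CALR, HSPA5, PDIA4, HERPUD1, XBP1, SDF2L1, CRELD2, DNAJC3 and DNAJB9, and of the neighbours only SDF2L1 and CRELD2 overlapped. The same order held in RD-ES eKD2. In SK-N-MC control HSP90B1 (470 FPKM) and CALR (468 FPKM) overlapped at the top, PDIA4 stood above HSPA5, and CRELD2 stood above XBP1. HERPUD1 at 67.5 FPKM in RD-ES eKD2 was near its level in SK-N-MC control, 69.9 FPKM, a comparison that was not tested.

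The other genes of the ER pathway were taken as 6 lists of 74 genes, of which 72 were tested and DERL3 and KDELR3 were too low. None passed the adjusted threshold in either line (limma). This count of 0 is near the shares of all genes that passed, 0.343% (RD-ES) and 0.323% (SK-N-MC). It therefore does not set these lists apart. At an unadjusted p under 0.05, 4 were higher and 4 lower in RD-ES eKD2, against 8.49% and 3.79% of all genes. For SK-N-MC eKD2, 7 were higher and 7 lower, against 5.71% and 7.29% of all genes. No difference from these shares was tested. The median log2 fold change was -0.021 in RD-ES, against 0.031 over all genes, and 0.037 in SK-N-MC, against -0.0049. Of all genes tested, RD-ES had 12.3% past that unadjusted level and SK-N-MC 13.0%.

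Among the 6 sensors and their proteases (ERN1, EIF2AK3, ATF6, ATF6B, MBTPS1 and MBTPS2), ERN1 and ATF6 were higher at an unadjusted p under 0.05 in RD-ES eKD2. Of all genes tested, 8.49% were higher at that level. ERN1, which encodes IRE1, was at 2.79 and 2.71 FPKM in the RD-ES controls, against 6.65 and 4.41 FPKM with eKD2 (log2 fold change 0.78, adjusted p = 0.244). Both eKD2 libraries were above the controls, though far apart. ATF6 was at 16.4 and 17.5 FPKM in the RD-ES controls, against 18.8 and 20.1 FPKM with eKD2 (0.19, adjusted p = 0.400). In SK-N-MC none of the 6 had an unadjusted p under 0.05.

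Of the 20 genes of translocation, signal peptide removal and glycosylation, SEC62, a translocon subunit, was at 44.9 and 46.4 FPKM in the RD-ES controls, against 67.2 and 66.4 FPKM with eKD2 (log2 fold change 0.54, adjusted p = 0.156). SSR1 was close behind by p in RD-ES (0.23, adjusted p = 0.218), and SEC61B was lower (-0.19, adjusted p = 0.291). In SK-N-MC, 2 oligosaccharyltransferase subunits stood on opposite sides, RPN2 higher (0.26, adjusted p = 0.343) and RPN1 lower (-0.26, adjusted p = 0.205). Further subunits, DDOST (0.18), STT3A (0.061) and OSTC (0.044), were on the higher side there and were named after their values were seen. Among 10 disulfide isomerases and oxidases, PDIA5 was at 34.2 and 31.9 FPKM in the RD-ES controls, against 20.2 and 25.1 FPKM with eKD2 (-0.53, adjusted p = 0.182).

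Of 12 further chaperones and co-chaperones, none had an unadjusted p under 0.05 in RD-ES, which 12.3% of all genes had. In SK-N-MC 3 were lower at that level (7.29% of all genes in that direction), and none was higher (5.71%). CANX, the membrane-bound relative of CALR, was at 563 and 554 FPKM in the SK-N-MC controls, against 364 and 447 FPKM with eKD2 (log2 fold change -0.47, adjusted p = 0.222). DNAJB11, a BiP co-chaperone, was also lower there (-0.25, adjusted p = 0.249), as was MANF (-0.18, adjusted p = 0.359), which was named after its value was seen. In ER-associated degradation (15 genes tested) the adaptor SEL1L was at 34.3 and 36.0 FPKM in the SK-N-MC controls, against 44.7 and 51.3 FPKM with eKD2 (0.43, adjusted p = 0.208). FAF2 was lower in SK-N-MC (-0.24, adjusted p = 0.222) and VCP, the ATPase that extracts substrates, lower in RD-ES (-0.21, adjusted p = 0.364). In the list of ER to Golgi transport (9 genes tested), ARFGAP3 (0.39, adjusted p = 0.169) and SEC13 (0.39, adjusted p = 0.208) were higher in SK-N-MC. TRAM1, counted in that list although it belongs with translocation, was lower in RD-ES (-0.17, adjusted p = 0.354).

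**Figure D3:**
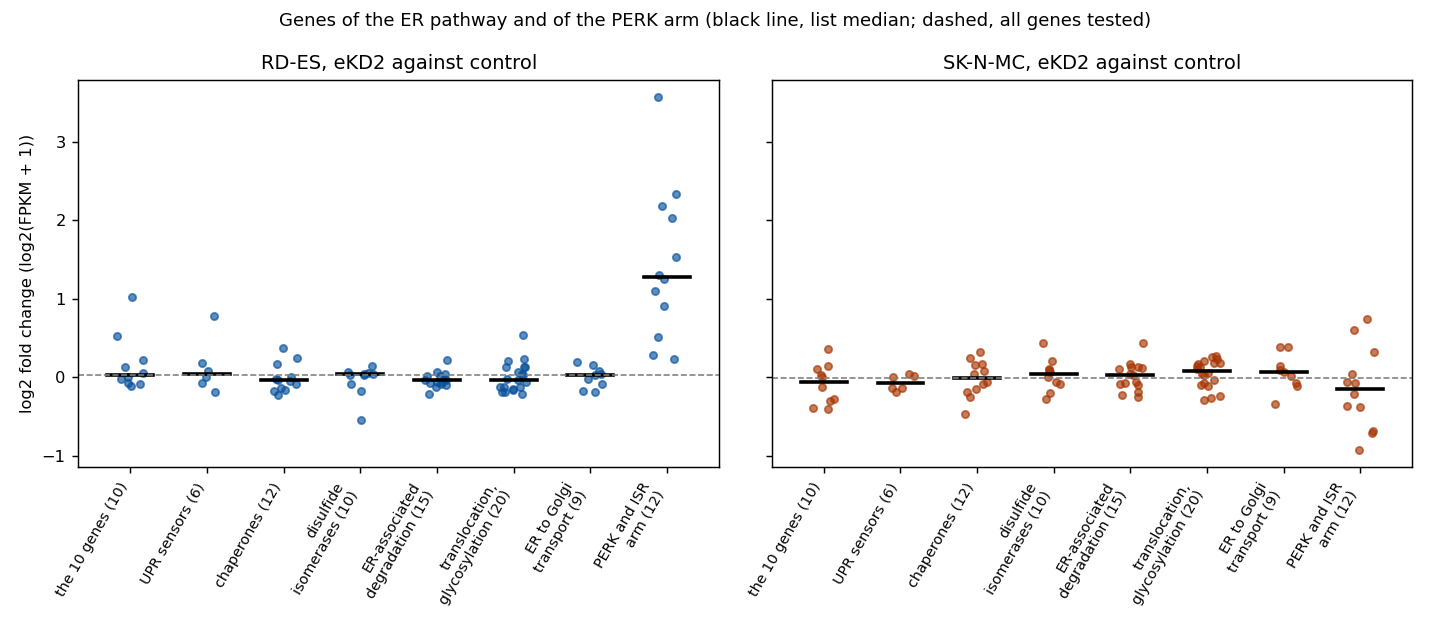
Log2 fold change between eKD2 and control (y axis, log2(FPKM + 1) scale) in RD-ES (left) and SK-N-MC (right) for the 10 genes, the 6 ER pathway lists and 12 genes of the PERK and integrated stress response (ISR) arm, with a point per gene, a black line at each list's median and a dashed line at the median of all genes tested. The arm stands apart in RD-ES with a median of 1.28, whereas the medians of the other lists lie near the dashed line in both lines.

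The PERK and integrated stress response arm was measured with 12 genes, ATF4, DDIT3, ATF3, ATF5, TRIB3, CHAC1, PPP1R15A, SESN2, DDIT4, CEBPB, ASNS and VLDLR. VLDLR was at no more than 0.343 FPKM in any RD-ES library and averaged 18.3 FPKM in SK-N-MC control and 15.6 FPKM in SK-N-MC eKD2, so it passed the filter on low values only through SK-N-MC. In RD-ES eKD2 the other 11 genes were above control, 9 of them past the adjusted threshold (0.264% of all genes tested passed in that direction), with a median log2 fold change of 1.31, or 1.28 with VLDLR. DDIT3 (CHOP), a transcription factor of prolonged stress, rose from 40.4 and 43.1 FPKM to 99.2 and 110 FPKM (log2 fold change 1.31, standard error 0.0792, adjusted p = 0.0032). ATF3, another stress-induced factor, rose from 11.1 and 8.82 FPKM to 52.3 and 55.1 FPKM (2.33, adjusted p = 0.0012). SESN2, a leucine sensor and inhibitor of mTORC1, rose from 5.11 and 5.56 FPKM to 26.9 and 28.3 FPKM (2.17, adjusted p = 6.6e-04). CHAC1 (3.56), DDIT4 (2.03), TRIB3 (1.53), ASNS (1.25), ATF5 (1.09) and PPP1R15A (0.91) rose too. Leaving out any 1 of the 8 libraries ended the call of PPP1R15A (adjusted p of 0.0639 to 0.151), and leaving out any but an RD-ES eKD2 library ended that of ATF5 (0.0727 to 0.0956). ATF4 (0.24, adjusted p = 0.241), CEBPB (0.51, adjusted p = 0.158) and VLDLR (0.29, adjusted p = 0.398; 1.35 with a pseudocount of 0.1) did not pass. CD68 was also higher in both RD-ES eKD2 libraries, and its part in these changes was not tested. With each line fitted alone, on 4 libraries, 0 of the 9 passed, with adjusted p between 0.108 and 0.496.

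In SK-N-MC eKD2 the arm was mixed, with 4 genes higher, 8 lower and a median of -0.14 (-0.073 without VLDLR), and none passed the adjusted threshold (limma). At an unadjusted p under 0.05, TRIB3 (0.74), ATF5 (0.60) and ASNS (0.32) were higher (5.71% of all genes were) and CHAC1 (-0.92), SESN2 (-0.71), ATF3 (-0.68), DDIT3 (-0.37) and DDIT4 (-0.37) were lower (7.29% of all genes). TRIB3 was at 73.7 and 77.4 FPKM in the SK-N-MC controls, against 122 and 132 FPKM with eKD2 (adjusted p = 0.0678). SESN2 was at 28.0 and 27.8 FPKM in the SK-N-MC controls, against 15.7 and 17.8 FPKM with eKD2 (adjusted p = 0.0616), and passed after median scaling at 0.0440, while its adjusted p ranged from 0.0440 to 0.313 across alternatives. The changes differed between the lines for 5 genes of the arm past the adjusted threshold, DDIT3, ATF3, CHAC1, SESN2 and DDIT4 (0.244% of all genes tested passed). In control cells the 11 genes other than VLDLR, whose higher level in SK-N-MC was fixed by the filter, were higher in SK-N-MC past the adjusted threshold (31.4% of all genes were), with a median log2 difference of 2.49 and a range of 1.19 to 4.58.

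In RD-ES eKD2, 0 of the 10 ER genes and 9 of the 11 genes of the arm other than VLDLR thus passed the adjusted threshold. Of all genes tested, 0.343% passed. The arm was listed with the change of CHAC1 known, and the difference between the lists was not tested. In each library, a median of the log2 difference from the control mean was taken over the 12 genes of the arm, VLDLR included. It was 1.26 and 1.30 in the RD-ES eKD2 libraries, against 0.053 and 0.031 for the 10 genes. In the SK-N-MC eKD2 libraries the medians were -0.14 and -0.19 for the arm and -0.059 and -0.13 for the 10 genes.

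**Figure D4:**
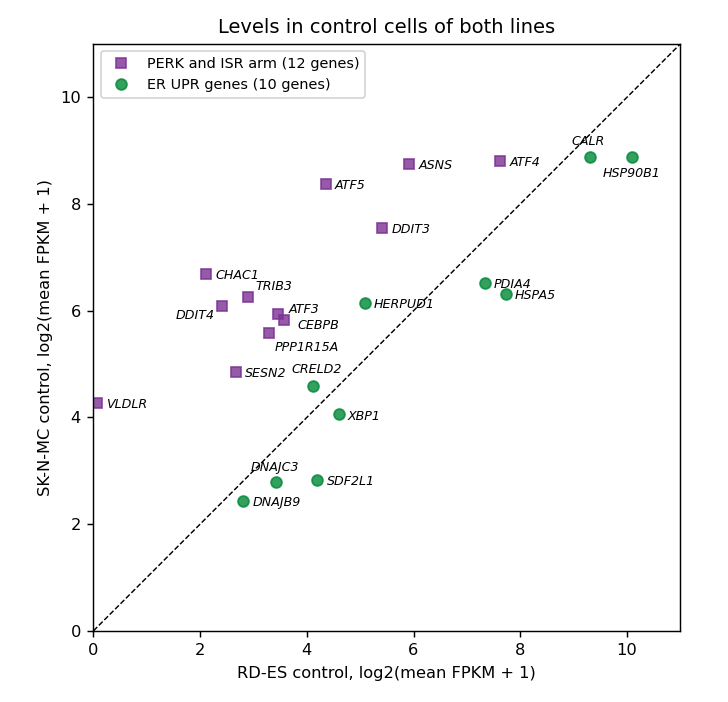
Mean level in control cells, log2(mean FPKM + 1), in RD-ES (x axis) and SK-N-MC (y axis) for the 10 ER genes (green circles) and the 12 genes of the PERK and ISR arm (purple squares), with the dashed line at equal levels. The 11 squares other than VLDLR lie above the line, as does VLDLR, whose higher level in SK-N-MC was fixed by the filter. Of the 10 circles, 8 lie below the line, and HERPUD1 and CRELD2 above.

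The genes most like HSPA5 were ranked by Pearson's r over the 8 libraries after each line's mean was subtracted, among 8776 genes that averaged 10 FPKM or more. COG1 (r = 0.978), YWHAZ (0.977), ELOC (0.968), LINC01515 (0.964) and C3orf14 (0.961) led, and none of them is an ER chaperone. DNAJB9 and DNAJC3 averaged under 10 FPKM and were not ranked. The other ER genes had r between -0.84 for HERPUD1 and -0.16 for HSP90B1. With the line means subtracted, r rests on small changes of HSPA5, 6.88% lower with eKD2 in RD-ES and 7.76% higher in SK-N-MC. These are descriptions over 8 points that share the lines and groups.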

How the data were processed

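RNA sequencing libraries of RD-ES and SK-N-MC cells (2 control and 2 eKD2 libraries per line) were grouped by their titles and treatment labels. The authors aligned reads to hg19 (GRCh37) with STAR and computed FPKM per gene and library with Cuffnorm, and the deposited matrix of FPKM values was used as it stands. The authors tested read counts with DESeq2. FPKM are not counts, so log2(FPKM + 1) was compared here with limma 3.58.1 in R 4.3.3 (lmFit, eBayes with trend), with 1 fit for the 4 groups and adjustment by Benjamini-Hochberg over the 15175 genes that averaged 1 FPKM or more. Folds on this scale understate changes of low genes. The fit was also run on simulated data, in which each gene had the same base level in all groups, unlike the 2 lines here. The only requirement was that median estimates lie near the folds added.

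The 10 genes and all lists were chosen with earlier results of these data known (the change of CHAC1 among them), so no list is independent support and no list was tested as a set. The text names the 10 genes, the targeted gene, ZNF10, all genes of the stress response arm, and the 5 genes most like HSPA5. Of the ER lists it gives the 4 genes of smallest p per direction in each line. Outside this rule, DDOST, STT3A, OSTC and MANF were named after their values were seen. Gene positions and overlaps come from GENCODE (v44lift37, GRCh37), and promoter letters from RefSeq promoters (GRCh38.p14), where all 10 genes had an entry. Relative depth was read from steps between low FPKM values, a ratio shared by 14.6% to 21.2% of low genes, and absolute depth is unknown. Alternatives were a pseudocount of 0.1, no filter, median scaling, quantile normalization, eBayes without trend, each line alone, a replicate block, and each library left out. Replicates correlated with r from 0.937 to 0.945 across genes, which are not independent.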

Additional observations from a re-analysis of the deposited data

Results flagged for a closer look

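None of the 10 ER genes had a change with eKD2 that differed between the lines past the adjusted threshold. Of the PERK and integrated stress response arm, 5 genes did (limma interaction contrast, SK-N-MC change minus RD-ES change, Benjamini-Hochberg over 15175 genes, of which 0.244% passed), and each was above control in RD-ES and below control in SK-N-MC. CHAC1, whose change was known when the arm was listed, had the widest log2 difference, -4.48 (adjusted p = 0.0012). Its RD-ES change was 3.56 and its SK-N-MC change -0.92. ATF3 had a difference of -3.01 (adjusted p = 0.0017) and SESN2 one of -2.88 (adjusted p = 0.0012). DDIT4 differed by -2.40 (adjusted p = 0.0017) and DDIT3 by -1.68 (adjusted p = 0.0048). The SK-N-MC changes of these 5 genes did not pass the adjusted threshold on their own. With the replicate number as a block, DDIT3 (adjusted p = 0.0584) and ATF3 (0.0736) lost the call, although the numbers do not pair the libraries.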

How the results depend on the processing

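In all 15 alternatives per line, 0 of the 10 genes and 0 of the ER pathway genes passed the adjusted threshold between eKD2 and control, and 0 of the 10 passed for the difference between lines in 14. Adjusted p ranged from 0.0967 to 0.553 for XBP1 and 0.133 to 0.553 for HERPUD1 in RD-ES, and from 0.0653 to 0.390 for CALR and 0.110 to 0.416 for PDIA4 in SK-N-MC. Without 1 library, the median of the 10 genes ran from 0.031 to 0.131 (RD-ES) and from -0.128 to -0.0247 (SK-N-MC). In the main fit 0.343% of all genes passed in RD-ES, 0.323% in SK-N-MC and 0.244% for the difference between the lines. The counts of 0 are near these shares. Where a library was left out, the lone library of its group was taken to vary like the others.

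Directions of small changes turned. In RD-ES, HSP90B1 became -0.0119 and CRELD2 -0.0619 with median scaling, and CALR 0.0714 and CRELD2 -0.0476 with quantile normalization. Without 1 library the RD-ES change of HSP90B1 ran from -0.046 to 0.167 (-0.0117 without control 2), of CRELD2 from -0.225 to 0.238, of SDF2L1 from -0.268 to 0.135 and of DNAJB9 from -0.0429 to 0.476. In SK-N-MC, CRELD2 ran from -0.0712 to 0.0957, DNAJC3 from -0.104 to 0.18 and PPP1R15A from -0.0234 to 0.117. The difference between lines ran from -0.225 to 0.238 for CRELD2, from -0.11 to 0.409 for DNAJB9 and from -0.231 to 0.0527 for DNAJC3. The cause was not tested.

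The number of all genes past the adjusted threshold moved from 52 in RD-ES, 49 in SK-N-MC and 37 for the difference to 79, 118 and 66 with no filter, and to 1 and 13 with each line alone. Without 1 library it ran from 27 to 71, 12 to 76 and 54 to 81. Of the stress response arm, whose alternatives were added after seeing the data, 7 or 8 of the 9 genes passed in RD-ES without 1 library. Replicate numbers are shared only as numbers, since deviations of same-numbered libraries correlated with r = 0.056 (RD-ES) and 0.027 (SK-N-MC). With the replicate block the counts were 11, 5 and 7 over all genes, 4 for the arm in RD-ES and 3 for its difference between the lines, and XBP1 and HERPUD1 in RD-ES had adjusted p of 0.265 and 0.140. ZNF10 lost its calls with the block (0.114 in RD-ES, 0.0938 in SK-N-MC) and with each line alone (0.108 and 0.155). Only 2 libraries per group and unknown depth limit these values.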
